A study of Bos taurus with 43 samples.

Results

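HOXC6, HOXC8, HOXC9, TBX15, TBX5, SHOX2 and MEIS2 are 7 transcription factor genes that mark the position of a tissue along the trunk and limbs. They were measured by 8 probes, 2 of them for HOXC8, of the 21475 gene probes on a bovine oligonucleotide array. The genes were chosen by their measured signals in these same arrays, since their log2 signal separated groups 3 and 4 from groups 1 and 2 of the study's principal component plot, or the positive bulls from the cross-breed controls, or they belong to the same families. Their values in those contrasts are therefore a description, and no p-value is given for them there.

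Biceps brachii, a muscle of the forelimb, was taken from 43 male cattle, 1 animal per array, in a study that looked for a transcriptional sign of corticosteroid treatment in commercial beef. The 4 positive bulls (P21, P54, P56 and P57), which the labels give as suspected of treatment, had been found positive by thymus histology and for dexamethasone in urine. The 21 unknown animals came from the same slaughterhouse survey and had no known treatment status. Both sets were 12 to 24 months old and mostly Charolais, Limousine or their crosses. The 5 untreated cross-breed controls (K7, K8, K10, K11 and K12) were 18 months old Charolais and Limousine crosses, and the 13 untreated Holstein controls (C17 to C48) were 13 to 18 months old. Each control set came from an earlier experiment of its own, so that breed, farm and array batch cannot be told apart between them. The study's plot placed the Holstein controls in group 1, the cross-breed controls with unknown animals 263, 265, 266, 269 and 270 in group 2, the positive bulls with 9 unknown animals in group 3, and the other 7 unknown animals in group 4. The dose, duration and time of any treatment of the commercial animals were not known.

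HOX genes lie in clusters in which the order along the chromosome follows the order of expression along the body axis. Adult fibroblasts, fat and muscle keep part of this embryonic code, so that a HOX profile differs between body sites. MEIS2 encodes a partner of HOX proteins that marks the proximal limb, SHOX2 acts in the proximal limb skeleton, TBX5 starts the forelimb, and TBX15 acts in the skeleton and in glycolytic muscle fibres.

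The scanner software's processed intensity was normalized on the log2 scale, so that 1 unit is a 2-fold difference. Each spot carried the software's call of whether it lay well above background. A probe counted as well above background on an array where at least 1 of its spots met this call. A probe below that call has only an upper bound, and levels of different probes are not compared. Gene spots that met this call made up 62.9% to 73.65% of each cross-breed array, 62.3% to 73.2% of each Holstein array and 74.95% to 89.4% of each positive array. Unknown animals spanned 40.2% (79) to 97.3% (50). The call thus also depended on the array, since SHOX2 met it at 3.19 on the array of animal 50 but not at 4.73 on that of K7. The number of arrays in a group limits the precision of every mean below. In bulk muscle, fewer cells of a type and less RNA per cell cannot be told apart.

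Of the 14 measured skeletal muscle markers, 13 were well above background on all 43 arrays, among them MB, the myoglobin gene, which ran from 16.92 to 19.03. CASQ1, a calcium-binding protein gene of the sarcoplasmic reticulum, was dim, at 2.05 to 6.71 and well above background on 25 arrays. Of the genes of limb identity in the embryo, TBX5 of the forelimb was well above background on 14 arrays, and TBX4 and PITX1 of the hindlimb on 29 and 42. These probes are not compared with one another, so that the counts do not check the forelimb label.

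**Figure D1:**
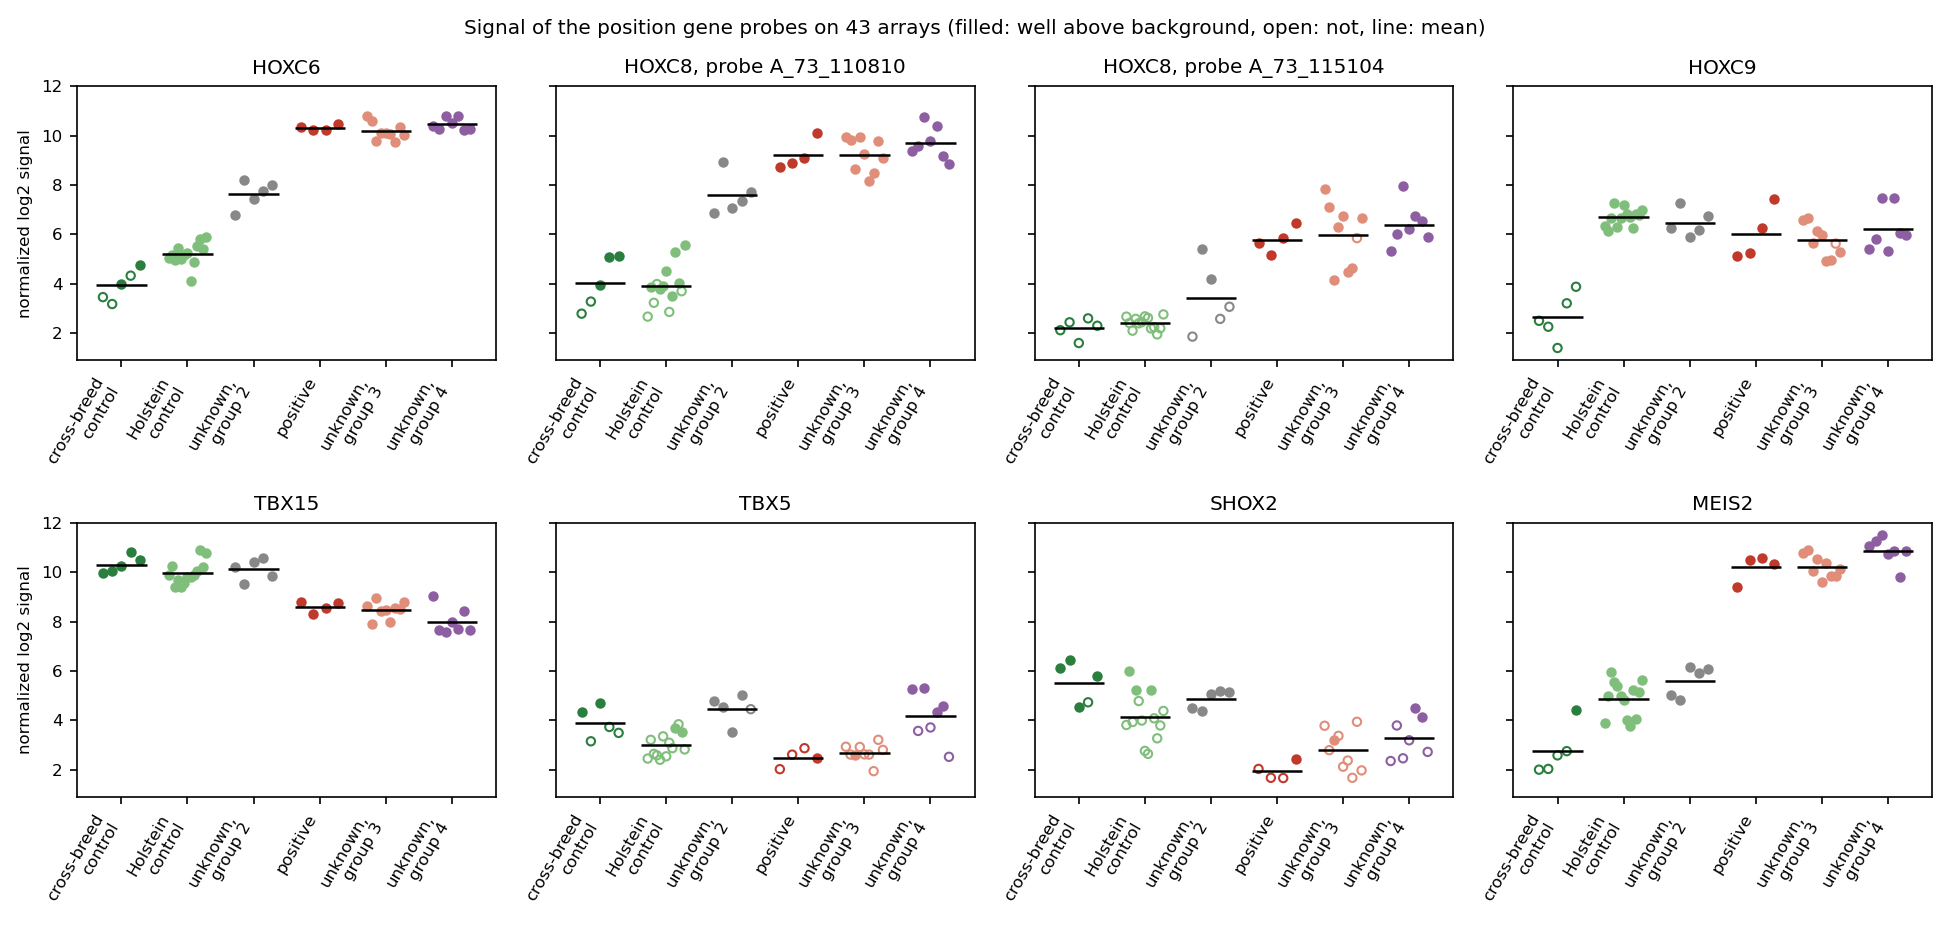
Normalized log2 signal (y axis) of the 8 probes on 43 arrays, by set of animals (x axis); filled points were well above background, open points were not, and lines are means. HOXC6 was between 9.73 and 10.82 in groups 3 and 4 and between 3.18 and 8.20 elsewhere, while TBX5 stayed at or under 5.30.

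HOXC6, a gene of the middle of the HOXC cluster that acts at forelimb and anterior trunk level, was low in the controls, intermediate in group 2 unknown animals and high in all other animals. In the cross-breed controls its log2 signal was 3.18 (K11), 3.46 (K10), 3.99 (K12), 4.33 (K7) and 4.77 (K8), and only K8 and K12 were well above background. In the Holstein controls it ran from 4.10 to 5.89, with a median of 5.16, and all 13 arrays were well above background. These control ranges overlapped.

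The 5 unknown animals of group 2 lay on a step of their own for HOXC6. They gave 6.78 (263), 7.42 (266), 7.77 (269), 8.01 (270) and 8.20 (265), above every control and below every other commercial animal. The positive bulls gave 10.22 (P54), 10.22 (P56), 10.34 (P21) and 10.49 (P57). The unknown animals of group 3 ran from 9.73 to 10.78 (median 10.11) and those of group 4 from 10.25 to 10.82 (median 10.39), so that these last 3 sets overlapped. Group means were 3.95 ± 0.64 (SD, n = 5) in the cross-breed controls, 5.21 ± 0.46 (n = 13) in the Holstein controls, 7.64 ± 0.56 (n = 5) in group 2 unknown animals and 10.32 ± 0.12 (n = 4) in the positive bulls. The mean of the 20 arrays of groups 3 and 4 exceeded that of the 5 unknown animals of group 2 by 2.67, or 6.38-fold.

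HOXC8, the next measured gene of the cluster, was also high in groups 3 and 4, and at its brighter probe group 2 unknown animals again lay above all controls. At that probe, A_73_110810, the cross-breed controls ran from 2.79 to 5.14 and the Holstein controls from 2.67 to 5.56, with 3 of 5 and 8 of 13 arrays well above background. The unknown animals of group 2 gave 6.85 (263), 7.06 (266), 7.34 (269), 7.71 (270) and 8.95 (265). The positive bulls gave 8.74, 8.91, 9.10 and 10.10, and groups 3 and 4 together ran from 8.15 to 10.74. Animal 265 of group 2 thus lay above the lowest arrays of groups 3 and 4, and the 2 ranges overlapped.

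At the dimmer HOXC8 probe, A_73_115104, no array of the 18 controls was well above background. Among group 2 unknown animals it was so on 2 of 5 arrays (265 at 5.41 and 266 at 4.21), and the duplicate spots of animal 266 differed by 5.42. The positive bulls ran from 5.17 to 6.45 and all 4 were well above background, as were 15 of the 16 unknown animals of groups 3 and 4. Relative to the cross-breed controls, this probe was at least 3.18-fold higher in the positive bulls. For this bound the dim arrays are held at the lowest signal at which probes of the same array had all their spots well above background. With normexp background correction its log2 difference was 0.915, which is under the bound.

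HOXC9, the neighbour of HOXC8 that marks the thoracic flank, did not share this order. It was well above background on none of the 5 cross-breed arrays, which gave 1.40 (K12), 2.26 (K11), 2.50 (K10), 3.21 (K7) and 3.88 (K8). On the other 38 arrays it ran from 4.93 to 7.49 and was well above background on 37 of them, all but that of animal 79. Its mean was 6.69 ± 0.35 (n = 13) in the Holstein controls, 6.48 ± 0.54 (n = 5) in group 2 unknown animals, 6.02 ± 1.08 (n = 4) in the positive bulls, 5.75 ± 0.64 (n = 9) in group 3 unknown animals and 6.22 ± 0.90 (n = 7) in group 4. These 5 sets overlapped with one another, and the cross-breed controls stood apart from all of them.

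MEIS2, the HOX partner, had, among these genes, the widest distance between the arrays of groups 3 and 4 and those of groups 1 and 2. The cross-breed controls gave 2.0 (K10), 2.03 (K11), 2.58 (K12), 2.75 (K7) and 4.43 (K8), with only K8 well above background. The Holstein controls ran from 3.78 to 5.97, and the unknown animals of group 2 gave 4.83 (265), 5.03 (263), 5.91 (269), 6.08 (270) and 6.15 (266), so that both of these sets overlapped.

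The 20 arrays of groups 3 and 4 all lay at or above 9.42 for MEIS2. The positive bulls gave 9.42 (P21), 10.33 (P57), 10.49 (P54) and 10.59 (P56), and the duplicate spots of P21 differed by 1.98. Groups 3 and 4 exceeded group 2 unknown animals by 4.85 in the mean, or 28.8-fold. Unlike HOXC6, MEIS2 did not set group 2 unknown animals apart from the Holstein controls, whose means were 5.60 and 4.88.

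TBX15 ran the other way and was well above background on all 43 arrays. The cross-breed controls gave 9.95 (K10), 10.04 (K11), 10.27 (K12), 10.48 (K8) and 10.82 (K7), the Holstein controls ran from 9.39 to 10.90 and group 2 unknown animals from 9.51 to 10.57. These 3 sets overlapped throughout. The positive bulls gave 8.29 (P54), 8.54 (P56), 8.77 (P57) and 8.81 (P21), and groups 3 and 4 ran from 7.57 to 9.05. The distance between groups 3 and 4 and groups 1 and 2 was 0.34, small beside that of MEIS2 (3.27) or HOXC6 (1.53). Animal 36 of group 4 gave the highest TBX15 of its set, and Holstein C20 the lowest of the other.

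SHOX2 and TBX5 were dim. SHOX2 was well above background on 4 of 5 cross-breed arrays, 5 of 5 arrays of group 2 unknown animals, 3 of 13 Holstein arrays and 4 of the 20 arrays of groups 3 and 4. The cross-breed controls gave 4.55 (K12), 4.73 (K7), 5.78 (K8), 6.11 (K10) and 6.45 (K11), and group 2 unknown animals ran from 4.36 to 5.18. The positive bulls gave 1.66, 1.67, 2.03 and 2.45, of which only P57 was well above background, and group 4 reached 4.48 (animal 51). The ranges of groups 3 and 4 and of groups 1 and 2 overlapped for SHOX2.

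TBX5 lay under a log2 signal of 4 on 33 arrays and was therefore the 1 member probe, of 8, left out as dim (under 4 on at least 30 of the 43 arrays). Arrays with TBX5 well above background numbered 4 of 5 among group 2 unknown animals (3.53 to 5.04), 4 of 7 in group 4 (2.52 to 5.30), 2 of 5 cross-breed, 2 of 13 Holstein, 1 of 4 positive and 1 of 9 in group 3. The means were 4.46 ± 0.57, 4.18 ± 0.99, 3.89 ± 0.63, 3.00 ± 0.49, 2.49 ± 0.36 and 2.69 ± 0.35 in that order. Most of the sets overlapped. The processed signals of the positive bulls (2.02 to 2.87) lay below those of the cross-breed controls (3.15 to 4.70) and group 2 unknown animals. Those of group 3 unknown animals (up to 3.21) lay below those of group 2. Most arrays of the positive, group 3 and cross-breed sets were not well above background, so that their dark values are upper bounds. No order of expression is therefore read between the positive bulls and the cross-breed controls. Its duplicate spots had an SD of 0.66, against 0.10 for TBX15 and 0.26 for HOXC6.

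Of the 16354 probes that passed the dim filter, 46 lay higher on every array of groups 3 and 4 than on any array of groups 1 and 2 (0.281%) and 50 lay lower (0.306%). Of the 7 member probes that passed, HOXC6 and MEIS2 were among the first and TBX15 among the second. This is the property on which members were selected. HOXC8, SHOX2 and HOXC9 overlapped. HOXC9 ran from 4.93 to 7.49 (median 5.90) in groups 3 and 4, from 6.12 to 7.26 (median 6.70) in the Holstein controls and from 5.90 to 7.27 (median 6.27) in group 2 unknown animals.

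Few batches held both kinds of array. Slide 6 held animals 36 and 58 of group 4 and animal 269 of group 2. On it HOXC6 was 10.39 and 10.25 against 7.77, MEIS2 was 11.07 and 9.79 against 5.91, and TBX15 was 9.05 and 8.42 against 10.57. On the scan day that slide 6 shared with slide 7, both group 4 arrays lay outside the range of the 5 group 2 arrays for HOXC6, MEIS2, TBX15, SHOX2 and the brighter HOXC8 probe. The dimmer HOXC8 probe, HOXC9 and TBX5 overlapped there. Within that day the mean difference, group 4 minus group 2, was 2.68 for HOXC6, 4.83 for MEIS2 and -1.38 for TBX15.

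**Figure D2:**
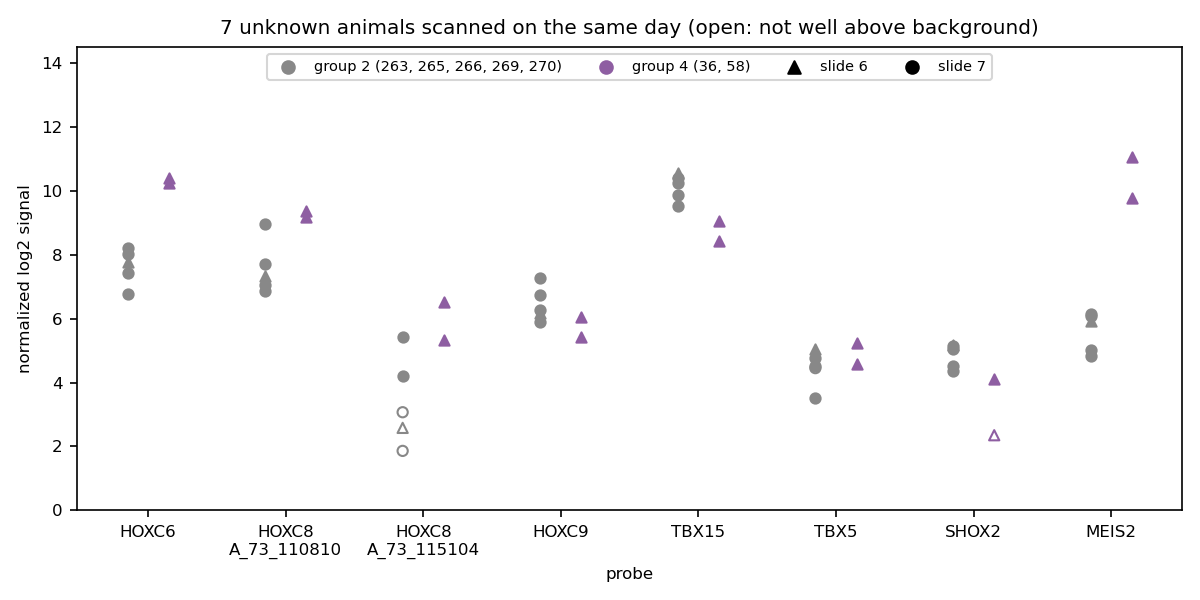
Normalized log2 signal (y axis) of the 8 probes (x axis) in 7 unknown animals scanned on 1 day; triangles are slide 6, circles slide 7, and open symbols were not well above background. HOXC6 was 10.25 and 10.39 in group 4 and 6.78 to 8.20 in group 2.

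Against HOXC6, the arrays formed clusters rather than a line. The arrays of groups 3 and 4 gathered at high HOXC6, high MEIS2 and low TBX15. Along HOXC6 the unknown animals of group 2 lay between the controls and the rest, while their range overlapped that of the Holstein controls for MEIS2 and those of both control sets for TBX15. For this reason no correlation over all arrays is given.

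**Figure D3:**
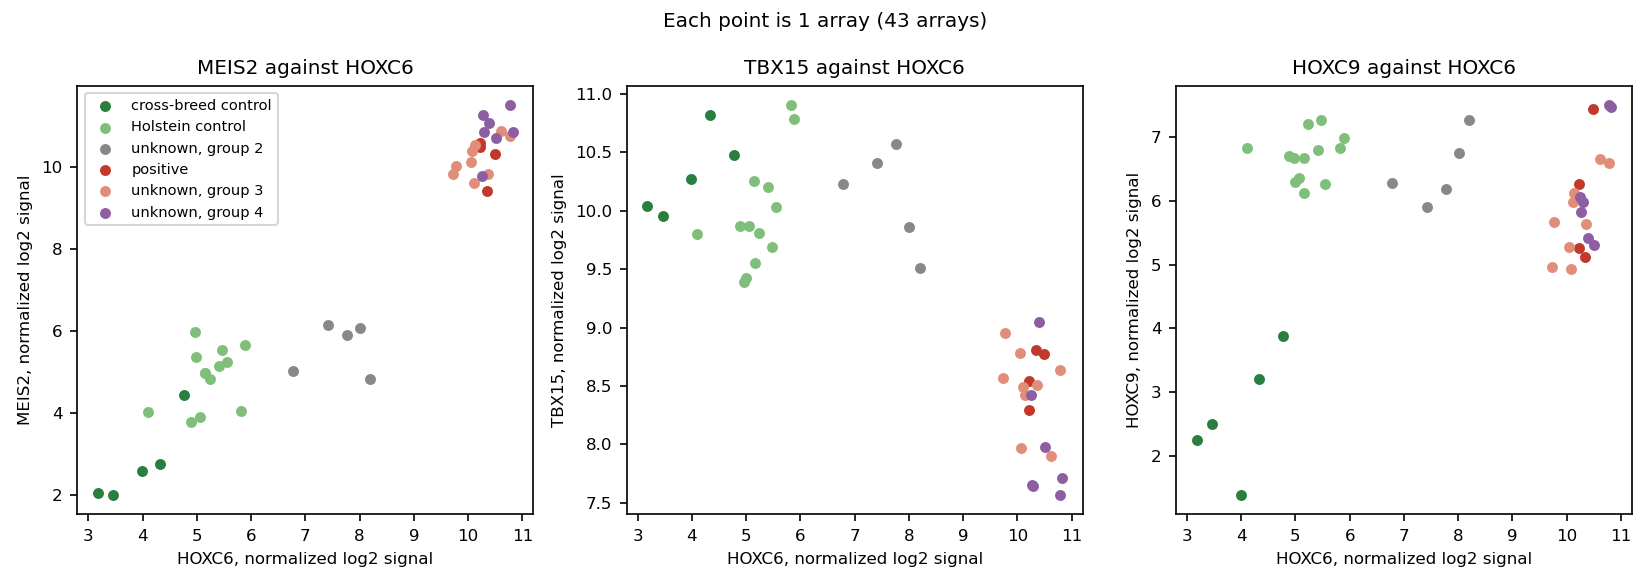
Normalized log2 signal of MEIS2, TBX15 and HOXC9 (y axes) against HOXC6 (x axes), 1 point per array, coloured by set of animals. Group 2 unknown animals lie at 6.78 to 8.20 on HOXC6, between the Holstein controls (up to 5.89) and groups 3 and 4 (from 9.73).

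Holstein and cross-breed controls, both untreated, were compared to ask how far these genes differ between control sets. In this comparison 10.9% of the 16354 probes were called higher in Holstein and 9.69% lower (limma, Benjamini-Hochberg adjusted p under 0.05 and at least 2-fold). This split of 1777 higher and 1584 lower probes became 1299 and 2422 when arrays were scaled to their 75th percentile. Of the 7 member probes that passed the dim filter, 4 met this threshold. The same 5 cross-breed arrays were 1 arm of the contrast by which members were chosen. This count, the member values and their 95% intervals below are therefore a description, with no p-value. An interval without 0 is not read as a test. HOXC9 was at least 5.96-fold higher in the Holstein bulls (13 of 13 arrays well above background, against 0 of 5), and every Holstein array lay above every cross-breed array. The log2 difference was 2.12 (95% interval 1.29 to 2.95) for MEIS2, which was well above background on 1 of 5 cross-breed arrays, and 1.26 (0.72 to 1.80) for HOXC6, which was so on 2 of 5. For SHOX2, well above background on 3 of 13 Holstein and 4 of 5 cross-breed arrays, it was -1.38 (-2.36 to -0.40). For MEIS2 and HOXC6 in the cross-breed and SHOX2 in the Holstein controls, most arrays were not well above background. There the difference and its interval are those of the processed signals and do not measure a fold. With normexp background correction the differences were 1.275 for HOXC9, which is under the bound above, 1.02 for MEIS2, 0.85 for HOXC6 and -0.48 for SHOX2, the last 2 under 2-fold.

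The arrays overlapped for MEIS2, HOXC6 and SHOX2. SHOX2 was no longer past the threshold without K10 (-1.235) or without K11 (-1.148). TBX15 (-0.35, -0.82 to 0.13) and the brighter HOXC8 probe (-0.13, -1.06 to 0.80) were not past it, and the dimmer HOXC8 probe was not well above background in either set. Before normalization the HOXC9 ranges overlapped, at 2.16 to 5.25 in the cross-breed and 4.88 to 6.92 in the Holstein controls. Both sets were run on different slides, scan days and scanners, so that batch and breed cannot be told apart.

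Other position genes also differed between the control sets. The lists of HOX, T-box, HOX cofactor and limb genes held 90 further probes, of which 63 passed the dim filter. Of the 63, 4 (6.35%) were called higher in Holstein and 14 (22.2%) lower, with a median log2 difference of -0.22 against 0.01 over all probes. The 14 lower probes became 7 with normexp and 19 with 75th percentile scaling.

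LHX2, a factor of the limb bud tip, was higher in the Holstein controls by 4.94 (limma adjusted p = 2.59e-07), with means of 10.04 and 5.10. MEIS1, the paralogue of MEIS2, was higher by 2.28 and MSX2, a homeobox gene of the limb ectoderm and mesenchyme, by 1.69. IRX3 was also called, but it was well above background on 3 of 13 Holstein and 0 of 5 cross-breed arrays, with means of 3.86 and 2.70, and no fold is given.

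The lower genes included SIX2 (-2.12), TBX3 (-1.94), which acts in the posterior limb, and PITX1 (-1.46). Of the 7 HOXD probes tested, 5 (71.4%) were lower in Holstein, among them HOXD1 (-1.59), HOXD8 (-1.49) and both HOXD9 probes (-1.42 each). PKNOX2 was lower by a log2 difference of -1.62 at 1 of its 2 probes, which was well above background on 7 of 13 Holstein arrays. HOXA11 and HOXA13 of the HOXA cluster were lower by -2.42 and -1.76. Of the 7 HOXC probes tested, some of them members, 2 were called higher and 0 lower. Over all probes 9.69% were called lower, so that 0 of 7 lies near that share and nothing is read from it.

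**Figure D4:**
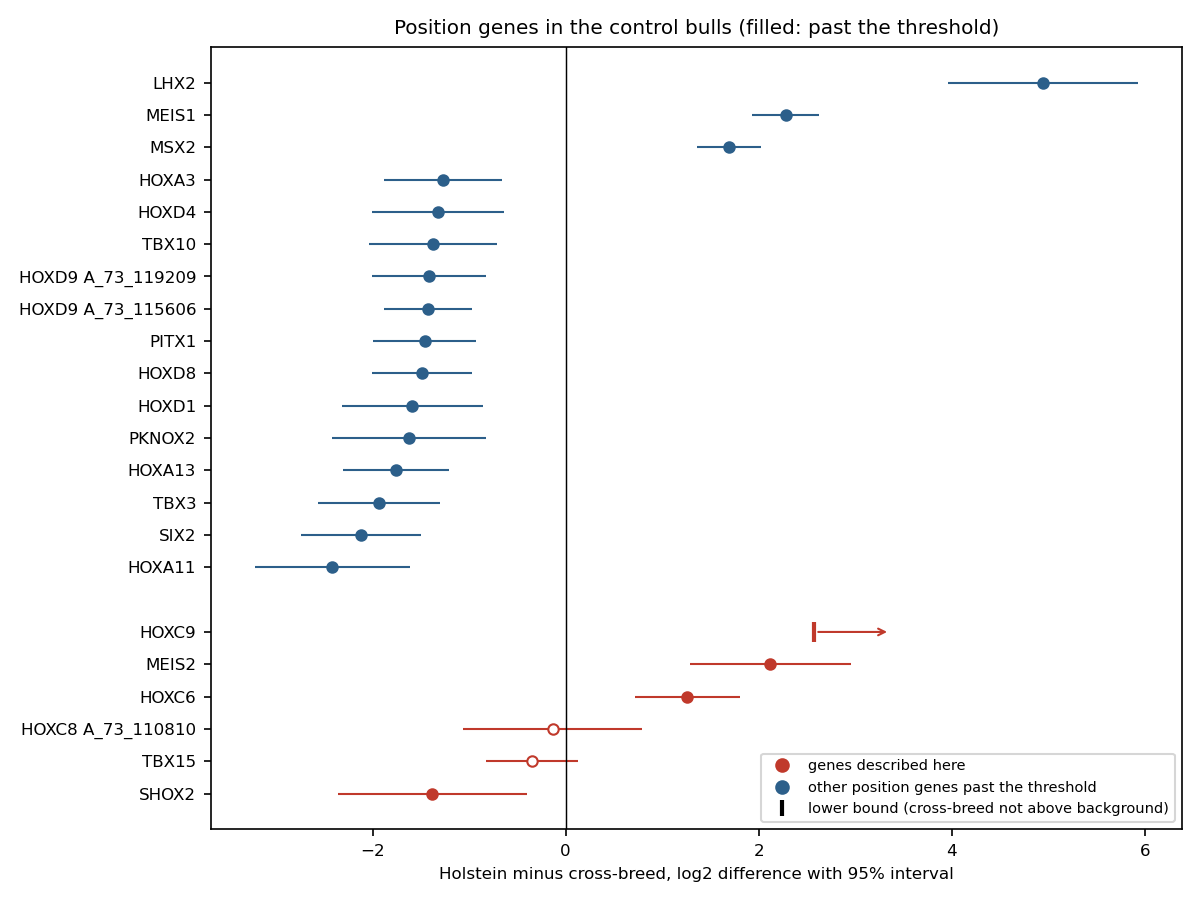
Log2 difference, Holstein minus cross-breed controls (x axis), with its 95% interval. Member probes are red, and other position probes past the threshold are blue (2 not shown). Filled points passed adjusted p under 0.05 and 2-fold. For member probes this and the intervals are a description and not a test. The arrow marks the lower bound for HOXC9 (at least 5.96-fold), the dimmer HOXC8 probe is left out because it was not well above background in either set, and LHX2 lies at 4.94.

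Among T-box genes outside the members, TBX3 and TBX18 were well measured. TBX3 means were 7.15 ± 0.41 in the cross-breed controls, 5.22 ± 0.65 in the Holstein controls and 4.92 ± 0.48 in group 2 unknown animals. They were 8.05 ± 0.05 in the positive bulls, 7.96 ± 0.38 in group 3 and 8.61 ± 0.76 in group 4 unknown animals. For TBX3 the cross-breed controls and group 2 unknown animals did not overlap, whereas for TBX15 they did. TBX18 lay between 6.49 and 9.62 on all arrays.

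Within the HOXC cluster the order by gene number was not smooth. One probe is described as HOXC5 but carries the gene ID of HOXC4. It was not well above background on any array of groups 1 and 2, at 1.68 to 3.07, and ran from 3.31 to 7.50 in groups 3 and 4. A second probe of HOXC4 had means of 6.50, 5.86 and 7.14 in the cross-breed, Holstein and group 2 animals and of 4.57, 4.87 and 6.60 in the positive, group 3 and group 4 animals, so that it was low in the positive and group 3 sets but not in group 4. HOXC10 had means of 5.63, 6.39 and 5.79 in the cross-breed, Holstein and group 2 animals and of 3.27, 3.42 and 5.20 in the positive, group 3 and group 4 animals. HOXC11, HOXC12 and HOXC13 failed the dim filter. Of the HOXA cluster, HOXA9 (at 2 of 4 probes) and HOXA10 were lower on every array of groups 3 and 4 than on any other array.

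**Figure D5:**
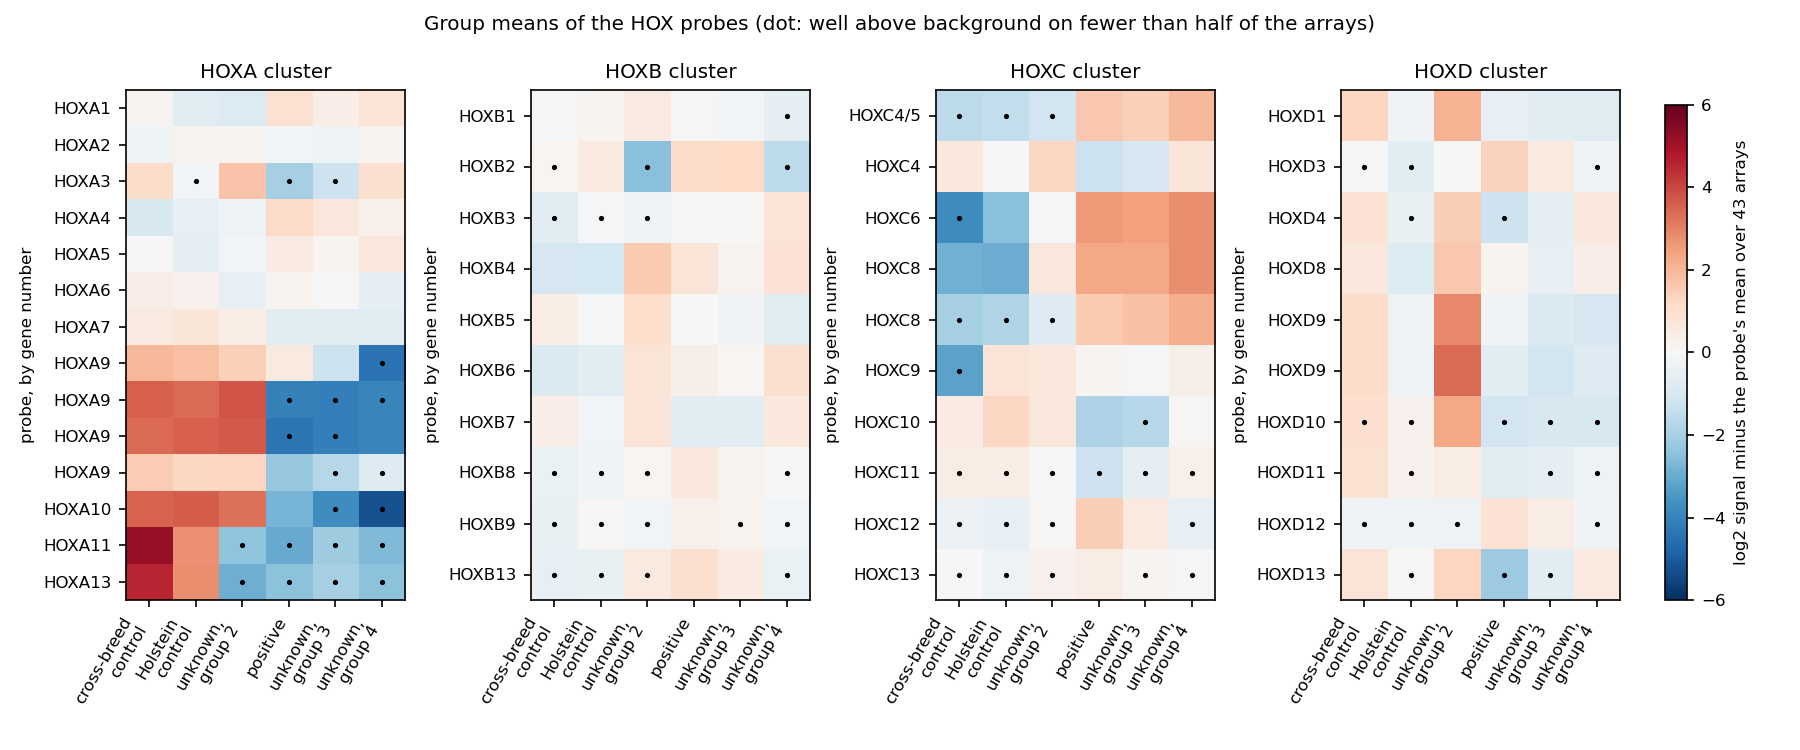
Group means of the HOX probes (rows, by cluster and gene number) in the 6 sets of animals (columns), as log2 signal minus the probe's mean over 43 arrays; dots mark sets in which under 50% of arrays were well above background. HOXC6 and HOXC8 are high in the 3 columns on the right (HOXC6 means 10.18 to 10.47), HOXC9 is low in the cross-breed column alone (mean 2.65).

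Of the 7 member probes that passed the dim filter, 5 were higher and 2 lower in the positive bulls than in the cross-breed controls, with ranges apart at each. This is again a contrast that chose them, so that nothing is read from the count. The background was 14.4% of probes called higher and 13.8% called lower, 2347 and 2250 probes. With quantile normalization it was 2141 and 3236, with 75th percentile scaling 3200 and 1425, and with cyclic loess applied pairwise 2152 and 4375. The log2 difference in means was 6.37 for HOXC6, 7.45 for MEIS2 and 5.17 for the brighter HOXC8 probe, which were well above background on 2, 1 and 3 of the 5 cross-breed arrays. For TBX15, measured on every array, it was -1.71, and -2.436 with pairwise cyclic loess. For SHOX2, well above background on 1 of 4 positive arrays, it was -3.57. HOXC9 was at least 3.75-fold higher. For HOXC6, MEIS2 and SHOX2, dark on most arrays of 1 set, the size is again not a measured fold, and it depended on the background correction. With normexp the differences were 3.78 for HOXC6, 4.04 for MEIS2, 2.75 for the brighter HOXC8 probe, 1.22 for HOXC9, under its bound, and -1.47 for TBX15, whereas SHOX2 (-0.65) and the dimmer HOXC8 probe (0.915) fell under 2-fold. The 2 sets shared no slide, scan day or scanner.

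Of the other 63 position probes, 11 (17.5%) were called higher and 22 (34.9%) lower in the positive bulls. Over all probes the shares were 14.4% and 13.8%, so that the share called higher lay near that of all probes. The higher probes included LHX2 (5.02), the HOXC5-described probe (at least 2.49-fold), HOXA4 (2.08), MEIS1 (1.99) and HOXB4 (1.77). The 5 probes with the lowest fitted differences were all of the HOXA cluster and were well above background on 5 of 5 cross-breed arrays. HOXA11 was at least 138-fold lower in the positive bulls, where no array was well above background. A pair of HOXA9 probes, each well above background on 1 of 4 positive arrays, had means of 3.12 and 2.66 in the positive bulls and of 10.92 and 10.31 in the cross-breed controls. HOXA13, so on 1 of 4, had means of 2.05 and 9.06, and HOXA10, so on 2 of 4, of 4.27 and 10.65. With at least 2 of 4 positive arrays dark, no fold is given for these. Of the 7 HOXD probes tested, 6 (85.7%) were lower and none was higher.

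Positive and unknown animals were hybridized together on slides 9 and 10, which allowed a test within slides of 4 positive bulls against animals 50, 78, 79 and 81, all of group 3. The 4 positive arrays were also 1 arm of a contrast by which members were chosen. Member values and their intervals are therefore again a description, with no p-value. No probe of 16354 was called (0%), although 1873 had an unadjusted p under 0.05 (limma with slide as a block). Without animal 79, 9 probes were called, none of them a member. HOXC6 was 10.32 ± 0.12 in the positive bulls and 9.98 ± 0.29 in the 4 unknown animals, a difference of 0.34 (95% interval -0.08 to 0.76).

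The intervals were -0.29 to 0.80 for MEIS2, -0.48 to 0.28 for TBX15 and -0.25 to 1.53 for HOXC9. They were -1.91 to 0.42 for SHOX2, -0.65 to 1.08 for the brighter HOXC8 probe and -0.78 to 1.68 for the dimmer one. For HOXC9 the difference was 1.39 on slide 9 and -0.10 on slide 10, since P57 (7.44) and P56 (6.26) both lay on slide 9. The brighter HOXC8 probe also changed sign, at 0.739 on slide 9 and -0.308 on slide 10, as did TBX15 (-0.206 and 0.006). Under other normalizations the HOXC9 difference reached 1.491 (quantile) and 1.858 (pairwise cyclic loess), the latter above its interval.

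The probes closest to each gene in profile were sought by the root mean square difference of centred log2 signals over the 43 arrays. It is a measure of likeness with no test. Members were chosen by how they separated these same arrays, or by family, so that nothing is read from the nearness of members to one another. The nearest to HOXC6 (root mean square of its own profile 2.62) were the brighter HOXC8 probe (0.69), MEIS2 (0.92), the dimmer HOXC8 probe (1.16), GSTA2 (1.36), a glutathione transferase gene, and the HOXC5-described probe (1.39). Its nearest mirror images were SEC14L4 (1.18), NEB (1.26), the nebulin gene of the thin filament, and ATP2B2 (1.27), a plasma membrane calcium pump gene. MEIS2 (own root mean square 3.09) was nearest to HOXC6 (0.92), the brighter HOXC8 probe (1.35), FOXG1B (1.45), FABP7 (1.54), a fatty acid binding protein gene, and the dimmer HOXC8 probe (1.62). PAK6 (1.33), a kinase gene, SEC14L4 and ATP2B2 mirrored it.

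TBX15 had a smaller profile (own root mean square 0.98). Its nearest probes were AJUBA (0.39), NSG1 (0.41), IFITM5 (0.41), CIDEB (0.41) and MYOZ3 (0.43), a gene of the Z-disc in fast fibres. Its mirror images were TSC22D4 (0.44), BBS2 (0.49) and SIRT3 (0.49), the gene of a mitochondrial deacetylase. All these probes share the libraries, normalization and batches of the members.

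Markers of cell types also differed between sets, and their part in the results was not tested. In the positive bulls, 9 of 16 skeletal muscle probes tested were called lower than in the cross-breed controls and 2 higher. For fibroblasts and fascia 6 of 13 were lower and 1 higher. For adipocytes 4 of 6 and for endothelium 3 of 6 were higher, with 0 lower. None of the 5 satellite cell or 5 leukocyte probes was called. Over all probes 13.8% were called lower and 14.4% higher. Of 73 probes in 10 marker lists, 3 had ranges that did not overlap between groups 3 and 4 and groups 1 and 2. VWF, of endothelium, ran from 10.99 to 13.01 and from 8.06 to 10.70. S100B, listed for Schwann cells and also made by other cells, ran from 11.46 to 13.43 and from 9.40 to 11.37. ATP2A1, the calcium pump of fast fibres, ran from 10.08 to 16.02 and from 16.48 to 17.97.

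None of the 15 fibroblast and fascia probes was so separated. The level of a list is the log2 of the sum of its probes' linear signals, so that the brightest probes weigh most. For fibroblasts and fascia, with DCN the brightest probe, medians were 14.22 in the cross-breed, 15.64 in the Holstein and 15.70 in group 2 animals. They were 13.26 in the positive, 14.12 in group 3 and 14.34 in group 4 animals. For endothelium the 6 medians in that order were 12.01, 11.75, 11.88, 12.99, 13.19 and 13.16, and for Schwann cells and nerve 11.35, 11.36, 10.38, 12.82, 12.57 and 12.33. Adipocyte levels, led by LPL, were 11.74, 12.93, 12.33, 13.58, 13.99 and 14.12.

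The other lists had these medians in the same order. Skeletal muscle was at 20.36, 20.85, 19.75, 20.25, 20.49 and 19.44, and satellite cells, led by CDH15, at 11.42, 11.16, 10.91, 10.65, 10.86 and 10.80. Tendon, led by THBS4, was at 13.35, 13.20, 11.96, 12.94, 13.40 and 13.40, with SCX not well above background on any array except in group 3 and with MKX likewise dark in the cross-breed, group 2, positive and group 4 animals. TNMD was dark in the positive bulls. Smooth muscle and pericytes, led by ACTA2, were at 13.95, 14.46, 13.98, 14.62, 14.74 and 14.72.

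Leukocytes, led by PTPRC, were at 10.06, 9.81, 9.96, 9.94, 10.08 and 9.57, with ITGAM dark in the cross-breed, Holstein, group 2 and group 4 animals. NEFL of the nerve list was not well above background in any set but group 3, and CALCR of the satellite cell list not in group 4. HBB, the 1 erythroid gene measured, was at 4.42, 5.48, 4.48, 5.55, 5.00 and 4.92.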

How the data were processed

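The authors deposited Agilent single-colour scanner output for 43 arrays. The intensity used was the processed signal of each spot, which the deposited files give after the software's background correction, together with its flag, coded 0 or 1 (another deposited value, not a score), for lying well above background. A value table deposited by the authors, of linear intensity with array medians of 86.8 to 301 and, by the study's methods, normalized by cyclic loess, served as an alternative. The log2 of the processed signals was taken, cyclic loess was applied across the 43 arrays (limma 3.58.1, R 4.3.3), and signals were averaged over the spots of a probe without outlier spots. Probes under 4 on at least 30 arrays (5121 of 21475) were left out. Contrasts were fitted with limma and Benjamini-Hochberg adjustment over 16354 probes, and called at adjusted p under 0.05 and 2-fold. The steps were tested on simulated data. Probes were named from the files' gene names, gene IDs, accessions and descriptions with RefSeq (ARS-UCD2.0); HOXC8 and HOXC9 were named from the description alone. No probe sequence is printed.

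Members, gene lists and tests were chosen with earlier results of these data known. Groups 1 to 4 were read from the study's plot. Named genes were all members, the 5 nearest and 3 mirror profiles of HOXC6, TBX15 and MEIS2, position genes called between control sets (up to 10 a direction), the 5 largest a direction between positive and cross-breed arrays, and the brightest and dark cell type markers. IRX5, TBX4, TBX18 and the HOXC cluster probes without a call were added after their values were seen. Some position genes are not reported here. Replicates are single animals, each on 1 array.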

Additional observations from a re-analysis of the deposited data

How the results depend on the processing

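Counts of called probes moved most with normexp background correction, to 1362 (from 4597) between positive and cross-breed arrays and to 1391 (from 3361) between control sets, where 7 instead of 14 further position probes were lower in Holstein. Without the dim filter the first count was 7589. Between positive and unknown arrays on shared slides, leaving out 1 array at a time gave 0 to 9. Of the group means recomputed under alternative settings, 60 were labelled as moved and 228 as the same. Of the 96 probes with ranges apart between groups 3 and 4 and groups 1 and 2, 22 were left without normalization (an alternative chosen after seeing the data), where the TBX15 ranges overlapped by 0.41 (distance -0.41). HOXC6 and MEIS2 stayed apart in every alternative in which they had values on all arrays; the series value table lacks some for HOXC6. With normexp, HOXC6 (0.85) and SHOX2 (-0.48) dropped under 2-fold between control sets, and HOXC9 and MEIS2 gave 1.27 and 1.02 (from fitted values of 4.04, against a dark set, and 2.12). Between positive and cross-breed arrays SHOX2 (-0.65) and the dimmer HOXC8 probe (0.915) dropped under 2-fold, HOXC6 gave 3.78, MEIS2 4.04 and HOXC9 1.22. Uncalled differences changed sign as follows. Between control sets, the brighter HOXC8 probe gave 0.15 with the series value table, 0.43 with normexp, -0.445 to 0.141 when 1 cross-breed array was left out (above 0 without K7 or K8), and the dimmer one -0.22 with 75th percentile scaling. On shared slides, pairwise cyclic loess gave -0.29 for HOXC6, -0.62 and -0.51 for the HOXC8 probes and -0.51 for MEIS2. There, leaving out 1 array gave -0.089 (P57) to 0.576 for the brighter HOXC8 probe and -0.101 (animal 50) to 0.892 for the dimmer one. The dimmer one gave -0.25 with 75th percentile scaling, TBX15 0.038 with quantile normalization and SHOX2 0.006 with normexp. The cause of these shifts was not tested. No paired analysis was possible because replicate numbers are the animals' own numbers; the 1 number that occurs in 2 groups (P21 and C21) belongs to different animals. Signals near background, as for TBX5, SHOX2 and HOXC8 in controls, limit the order of low values.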

Other observations

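IRX3 and IRX5, neighbouring homeobox genes that act early in limb patterning, were high only in the 5 unknown animals of group 2. IRX5 ran from 7.72 to 8.72 there, with all 5 arrays well above background. In the other sets its means were 2.87 ± 0.46 (SD, n = 5) in the cross-breed controls, 2.94 ± 0.85 (n = 13) in the Holstein controls, 2.74 ± 0.43 (n = 4) in the positive bulls, 2.86 ± 0.89 (n = 9) in group 3 and 3.18 ± 0.80 (n = 7) in group 4, and the highest single value was 5.52. IRX3 ran from 6.61 to 8.43 in group 2 unknown animals and reached at most 5.06 elsewhere. HOXD9 had the same highest set, at 13.3 to 13.7 for its brighter probe against at most 12.4 on the other 38 arrays. These genes were picked after their values were seen, and the difference was not tested.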
